A study of Mus musculus with 12 samples.

Results

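The heat shock proteins and chaperones on the array were taken as the genes whose annotated symbol begins with Hspa to Hspe, Hsph or Hsp90, with Dnaja, Dnajb or Dnajc (Dnajc6 left out), or with Cct2 to Cct8. Of 75 such genes with a probe, 49 were measured. A gene was measured where a probe stood above background, with a detection p of 0.01 or less, throughout the 3 arrays of some group, and its brightest such probe was used. These 49 were among 8487 named genes measured in the series. The rule used detection only, not any difference between groups.

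The study sorted mouse embryonic stem cells (ESCs) by a reporter of Esrrb, the gene of an orphan nuclear receptor of the naïve pluripotency network. The ESCs were E14Tg2a cells in which a destabilised GFP follows both Esrrb alleles through a 2a peptide, and they were plated at 3000 cells per cm2 and grown in serum with LIF for 3 days. SSEA-1 positive cells were sorted by GFP into Esrrb-high (EsrrbHi), Esrrb-medium (EsrrbMed) and Esrrb-negative (EsrrbNeg) cells. The remaining group, EpiSC, was a line of epiblast stem cells derived from late bud stage embryos, grown in N2B27 with activin and FGF, with GFP-IRES-Puro in 1 Nanog allele and a tdTomato reporter at Esrrb. RNA of each group went onto 3 Illumina bead arrays. Line, reporter, medium and sorting differ between EpiSC and the ESC groups and cannot be told apart from cell state. The study calls the array experiments independent, while the labels do not say what was kept separate between replicates, so p-values measure the spread between these arrays. In such bulk samples, fewer cells expressing a gene and less RNA per cell cannot be told apart.

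Chaperones hold unfolded proteins and return them to a folding path. Hsp70 proteins bind and release clients in an ATP cycle, J proteins (the Dnaj genes) bring clients to Hsp70 and start ATP hydrolysis, and Hsp110 proteins exchange the nucleotide. Hsp90 completes the folding of kinases and receptors, small heat shock proteins hold clients without ATP, and the closed chambers of CCT in the cytosol and of Hsp60 with Hsp10 in mitochondria fold proteins inside a cavity. After heat or other damage, heat shock factor 1 raises many of these genes through heat shock elements in their promoters. Genes of the endoplasmic reticulum (ER) respond to unfolded proteins in that compartment through other elements.

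A group was counted where all 3 of its arrays detected the gene. Of the 49 measured genes, 44 were detected in all 4 groups, 2 in 3 groups (Dnajb13 and Dnajc28), 1 in 2 groups (Cct6b) and 2 in EpiSC alone (Hspa5 and Dnajc18). Hspa5 was also detected on 2, 1 and 1 arrays of EsrrbHi, EsrrbMed and EsrrbNeg, and Dnajc18 on 1 array of each. The measured genes were 8 CCT subunits, 4 Hsp70 and 2 Hsp110 proteins, 2 Hsp90 proteins, Hspd1 and Hspe1, 3 small heat shock proteins, 2 proteins that bind heat shock proteins, and 2, 6 and 18 J proteins of classes A, B and C. By compartment, 30 were assigned to cytosol and nucleus, 10 to mitochondria, 8 to the ER and 1 to vesicles. Among the 26 genes not measured were the heat-inducible Hsp70 genes Hspa1a and Hspa1b and the class A J protein Dnaja1, as well as the small heat shock genes Hspb2, Hspb3, Hspb7, Hspb9 and Hspb11. Of these 26, 21 were detected on no array, and a probe that is not detected does not show that its gene is silent. Hsp90ab1, the constitutive cytosolic Hsp90, was not analysed here.

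The promoters of these genes were searched for the elements named above, in windows from 250 bases before to 50 bases after the start (RefSeq, GRCm38.p6), which 39 of the 49 genes had. A heat shock element, written as 3 alternating units GAA and TTC with 2 bases between units and read on both strands, stood in windows of 4 of these 39 genes (Dnajb6, Hspd1, Hspe1 and Hsph1), or 10.3%, beside 0.662% of all 27025 genes with a window. The ER stress element, CCAAT and CCACG with 9 bases between them on either strand, stood in Hspa5 and Hsp90b1, or 5.13%, beside 0.137% of all genes. The letters AAGGTCA on either strand, a site known to be bound by ESRRB, stood in 4 of the 39 (Cct2, Dnajb13, Hspd1 and Hspe1), or 10.3%, beside 5.38% of all genes. The windows of Hspd1 and Hspe1 overlap on opposite strands. The same heat shock elements and the same AAGGTCA are thus counted for both of these genes. Hspb1, Hspb6 and Hspb8, the measured small heat shock genes, had windows in which none of these letters was found. A match is a description of letters and not a site shown to be bound.

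Printed here, with matches in capitals, are the window of Dnajb6 (chr5:29735648-29735947, + strand), a gene that fell in EsrrbNeg, that of Hspe1 (chr1:55087898-55088197, + strand), which overlaps the window of Hspd1 on the other strand (chr1:55087883-55088182), and that of Hspa5 (chr2:34771840-34772139, + strand). In Dnajb6 the heat shock element began 46 bases before the start, and 127 bases before another annotated start whose window is not printed. In Hspe1, 2 overlapping heat shock elements began 89 and 84 bases before the start and AAGGTCA 48 bases before it. In Hspa5 the ER stress element began 65 bases before the start.
Dnajb6: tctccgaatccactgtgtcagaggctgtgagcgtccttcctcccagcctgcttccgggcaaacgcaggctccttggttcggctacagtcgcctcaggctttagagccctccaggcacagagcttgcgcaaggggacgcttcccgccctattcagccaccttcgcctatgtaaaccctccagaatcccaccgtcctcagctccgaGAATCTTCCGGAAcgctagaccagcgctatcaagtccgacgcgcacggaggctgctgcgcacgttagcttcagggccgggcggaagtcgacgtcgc
Hspe1: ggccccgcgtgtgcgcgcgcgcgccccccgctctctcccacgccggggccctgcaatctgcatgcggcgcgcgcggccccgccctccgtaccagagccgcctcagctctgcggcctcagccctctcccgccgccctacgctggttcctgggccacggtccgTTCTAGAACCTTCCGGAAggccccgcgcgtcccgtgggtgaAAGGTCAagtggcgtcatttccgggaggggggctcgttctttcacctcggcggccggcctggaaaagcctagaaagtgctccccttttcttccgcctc
Hspa5: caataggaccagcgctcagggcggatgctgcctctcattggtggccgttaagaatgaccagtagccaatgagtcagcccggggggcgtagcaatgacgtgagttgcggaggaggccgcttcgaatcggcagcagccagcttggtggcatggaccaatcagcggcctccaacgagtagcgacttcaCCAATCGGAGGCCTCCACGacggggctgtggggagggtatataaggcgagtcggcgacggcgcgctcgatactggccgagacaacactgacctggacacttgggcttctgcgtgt

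Median array intensity ran from 82.9 to 97.9 and detected probes from 13333 to 15393 per array. Replicates 1 and 2 of the ESC groups were on 1 chip, and replicate 3 on the other with all EpiSC arrays. Esrrb ran from 11.73 to 12.10 on the log2 scale in EsrrbHi, 11.18 to 11.32 in EsrrbMed, 5.50 to 5.80 in EsrrbNeg and 6.0 to 6.55 in EpiSC, in the order of the ESC labels. Of 6 pluripotency markers, 5 were detected in every group, among them Pou5f1, Sox2 and Nanog. Of 9 fibroblast markers, Mmp2 and Thy1 were detected in each ESC group, and Col1a1 and Dcn also in EpiSC, with a summed normalised intensity of 208 to 239 in EsrrbHi, 249 to 284 in EsrrbMed, 356 to 375 in EsrrbNeg and 331 to 451 in EpiSC. Of 5 trophectoderm markers, Krt8 and Krt18 were detected throughout and Cdx2 in EsrrbNeg and EpiSC, with sums of 138 to 153, 172 to 182, 287 to 410 and 740 to 1007 in the same order. Of 8 extraembryonic endoderm markers, Dab2 alone was detected, with sums of 167 to 174, 163 to 187, 217 to 245 and 212 to 232. Each sum runs over all markers of its list with a probe, detected or not, so undetected probes add background to it. Dab2 itself averaged 4.95, 5.26, 6.58 and 6.06 on the log2 scale in the same order. These 3 sums were higher on every EsrrbNeg and EpiSC array than on any EsrrbHi or EsrrbMed array, and their part in the chaperone differences between these groups was not tested.

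Levels are normalised log2 intensities, given in the order of replicates 1, 2 and 3 of a group. Changes are log2 values ± standard error from a limma fit over all 12 arrays with a term for chip. That term rests on the ESC arrays, replicate 3 against replicates 1 and 2, so chip and replicate cannot be told apart in it. A gene was called where the p adjusted by Benjamini-Hochberg over all 11089 features was no higher than 0.05 and the change reached 1.5-fold, and adjusted p-values are those of limma throughout.

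Between EsrrbMed and EsrrbHi no chaperone gene was called in limma, higher or lower, against 0.478% and 0.703% of all features, and 6 of the 49 had an unadjusted p below 0.05, as did 16.5% of all features. The changes lay between −0.36 (Hsp90aa1) and 0.27 (Hsph1), and the widest 95% intervals reached −0.69 and 0.55. The median was −0.03 over the chaperones and 0.01 over all features. Hspb8, a small heat shock protein, read below every EsrrbHi array on every EsrrbMed array, with a change of −0.29 ± 0.13 (adjusted p = 0.288).

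Between EsrrbNeg and EsrrbHi, 1 chaperone gene rose and 6 fell, which is 2.04% and 12.2% of the 49, against 9.06% higher and 9.06% lower over all features. Both small heat shock proteins that were bright in ESCs fell, Hspb8 by 1.41 ± 0.13 and Hspb1 by 1.16 ± 0.14 on the log2 scale. With them fell the J proteins Dnajb6, Dnajb13 and Dnajc4 and the HSPB1-binding protein Hspbap1, and the Hsp70 gene Hspa2 rose. Between EsrrbNeg and EsrrbMed, 4 fell (Hspb8, Hspb1, Dnajb6 and Hspbap1) and 0 rose in limma, against 6.17% lower and 5.73% higher over all features, and 19 of the 49 had an unadjusted p below 0.05 in either direction, as did 39% of all features. The median change was −0.05 against EsrrbHi and −0.00 against EsrrbMed, beside 0.03 and 0.01 over all features. Both comparisons use the same EsrrbNeg arrays.

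Between EpiSC and EsrrbNeg, 5 rose (Hspb6, Dnajc30, Dnajc4, Hspb8 and Hspa2) and 2 fell (Hspb1 and Dnajc11), against 12.1% and 8.96% of all features. Between EpiSC and EsrrbHi, 4 rose (Hspb6, Hspa2, Dnajc15 and Dnajc5) and 7 fell (Hspb1, Dnajb6, Hspbap1, Dnajc27, Hspb8, Dnajc7 and Cct6b), against 18.5% and 14.9%. Between EpiSC and EsrrbMed, 4 rose (Hspb6, Hspa2, Dnajc15 and Dnajc5) and 6 fell (Hspb1, Dnajb6, Hspbap1, Dnajc27, Dnajc7 and Cct6b), against 17.1% and 13.4%. Cct6b, counted as lower, was detected on no EpiSC array. These comparisons share the EpiSC arrays. The medians over the chaperones were −0.08, −0.05 and −0.09, beside −0.01, 0.01 and −0.00 over all features. Of the 49 genes, 14.3%, 22.4% and 20.4% were called in either direction, below 21%, 33.4% and 30.5% of all features.

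**Figure D1:**
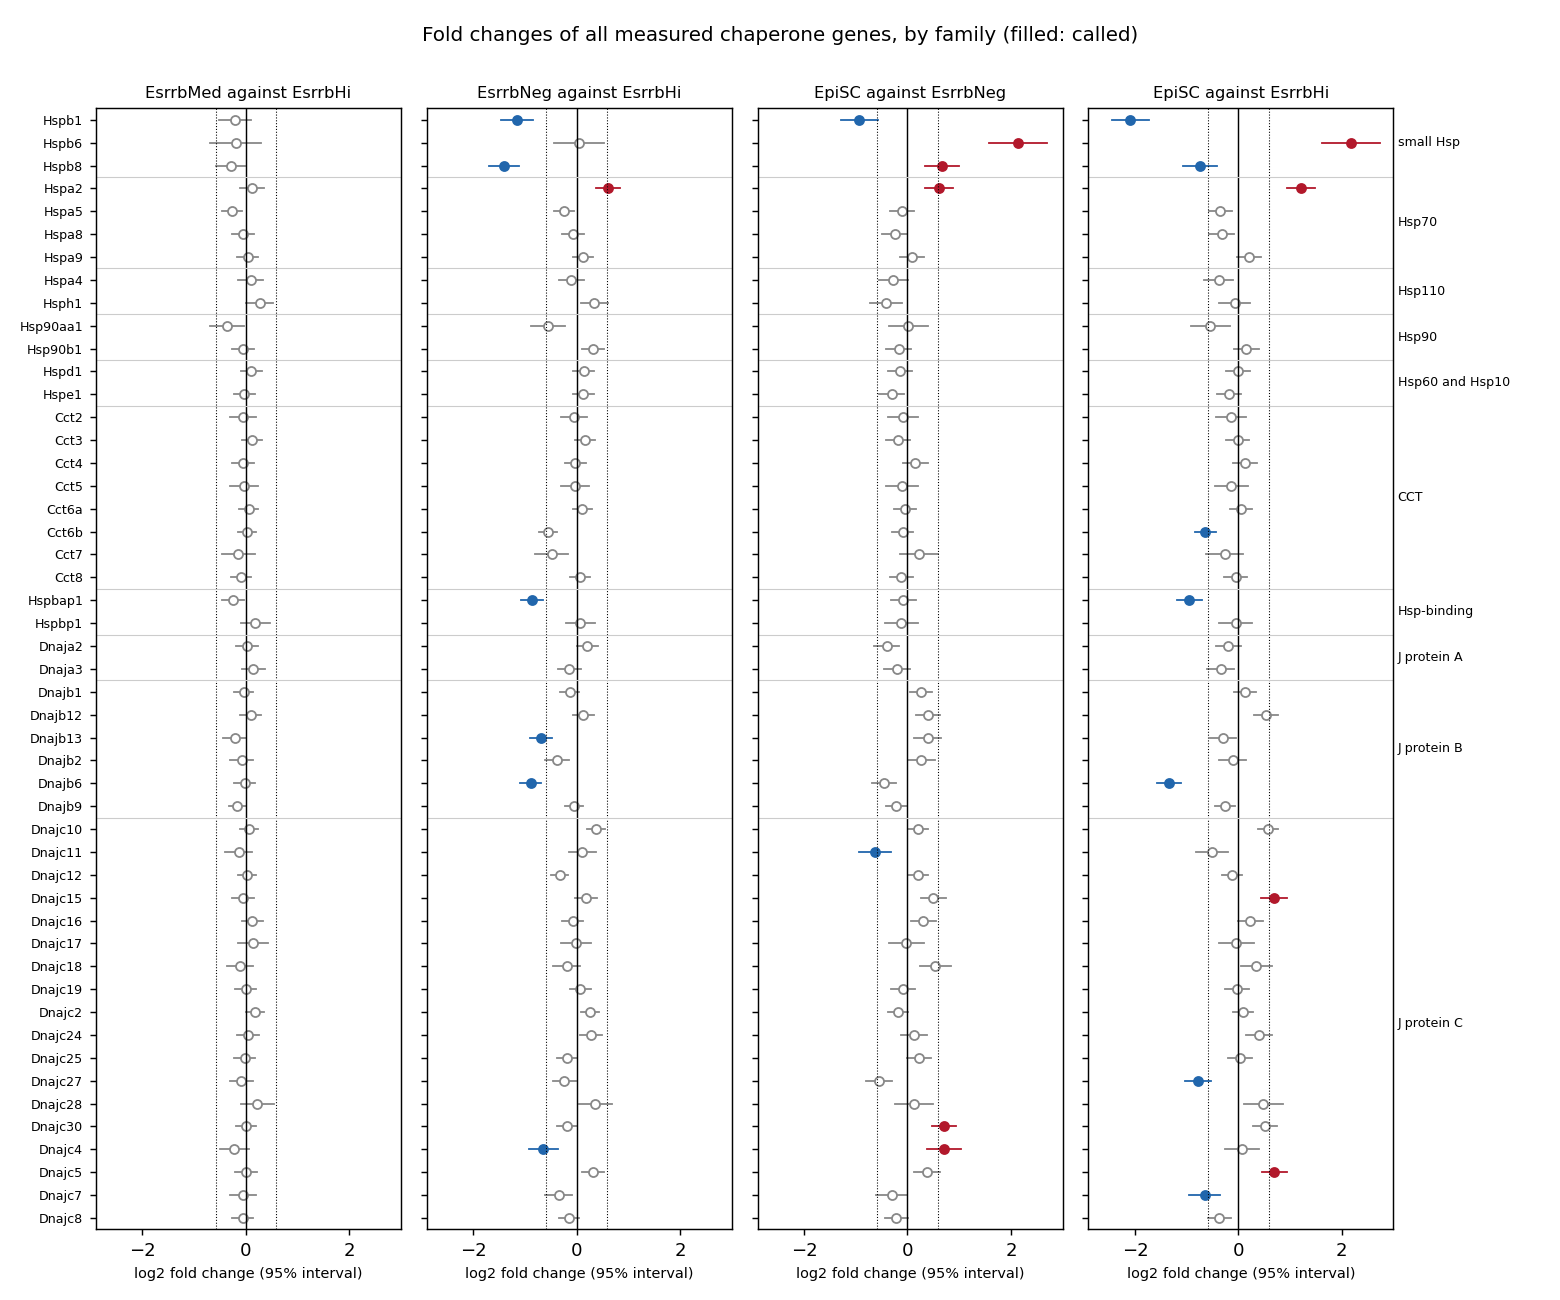
Log2 fold change of each of the 49 measured chaperone genes in 4 comparisons, grouped by family, with 95% intervals from limma. Filled points are called (red higher, blue lower) and dotted lines mark 1.5-fold, and the longest excursions are those of Hspb6 (2.18) and Hspb1 (−2.09) between EpiSC and EsrrbHi.

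The small heat shock proteins held the widest changes, and each had its own order of the groups. Hspb1 (Hsp25 in the mouse), which binds actin filaments and unfolded proteins, read 11.27, 11.17 and 11.10 in EsrrbHi, 10.91, 10.97 and 11.04 in EsrrbMed, 9.96, 10.17 and 9.93 in EsrrbNeg and 9.45, 8.95 and 8.77 in EpiSC. No array of one group overlapped another group. Hspb1 was 2.23-fold lower in EsrrbNeg than in EsrrbHi (adjusted p = 2.55e-05), 1.93-fold lower than in EsrrbMed (adjusted p = 0.000234) and a further 1.91-fold lower in EpiSC than in EsrrbNeg (adjusted p = 0.000645). From EsrrbHi to EpiSC the fall was 4.26-fold (adjusted p = 2.69e-07). The step from EsrrbHi to EsrrbMed, −0.21 ± 0.14, did not pass (adjusted p = 0.53).

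Hspb8, the small heat shock protein that works with the cochaperone BAG3 to pass damaged proteins to autophagy, read 8.58, 8.51 and 8.58 in EsrrbHi, 8.11, 8.28 and 8.40 in EsrrbMed, 6.88, 7.11 and 7.45 in EsrrbNeg and 8.21, 8.0 and 7.69 in EpiSC. Its lowest level was in EsrrbNeg, and EpiSC overlapped EsrrbMed but not the other groups. Hspb8 was 2.65-fold lower in EsrrbNeg than in EsrrbHi (adjusted p = 2.16e-06) and 2.16-fold lower than in EsrrbMed (adjusted p = 3.2e-05). EpiSC stood 0.66 ± 0.15 above EsrrbNeg (adjusted p = 0.00345) and 1.67-fold below EsrrbHi (adjusted p = 0.001). Neither of these differences was called with no background correction. Without EpiSC replicate 1 the rise over EsrrbNeg was 0.54 and under the fold threshold. A dimmer second probe gave 0.08 ± 0.13 for that rise (adjusted p = 0.629), and −1.04 ± 0.11 and −0.70 ± 0.11 for EsrrbNeg against EsrrbHi and EsrrbMed.

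Hspb6 (Hsp20), best known from muscle, read 7.11, 7.06 and 6.62 in EsrrbHi, 6.76, 6.94 and 6.50 in EsrrbMed, 6.82, 6.60 and 7.50 in EsrrbNeg and 8.91, 9.49 and 8.91 in EpiSC. The ESC groups overlapped, and every EpiSC array was above them. Hspb6 was 4.39-fold higher in EpiSC than in EsrrbNeg (adjusted p = 5.02e-05), 4.52-fold higher than in EsrrbHi (adjusted p = 1.11e-05) and 5.18-fold higher than in EsrrbMed (adjusted p = 6.35e-06). Between EsrrbNeg and EsrrbHi it was 0.04 ± 0.23, with a 95% interval from −0.45 to 0.53.

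**Figure D2:**
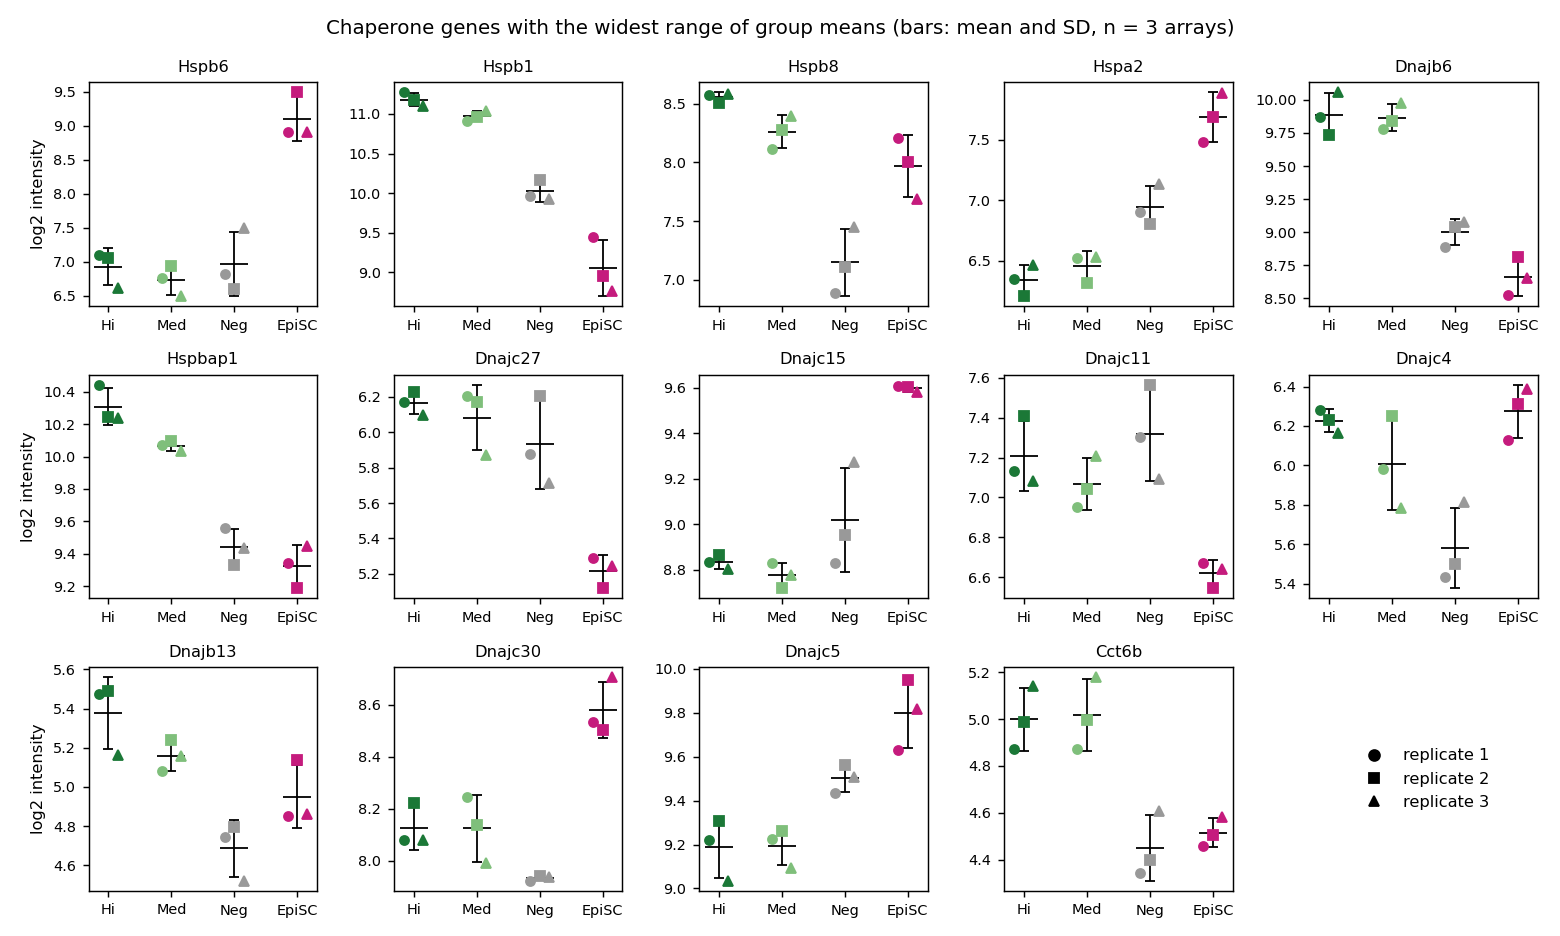
Normalised log2 intensity on each array for the 14 called chaperone genes with the widest range of group means, with each group's mean and SD (n = 3). Every panel has its own vertical axis, and Hi, Med and Neg stand for the Esrrb groups. Hspb1 steps down from EsrrbHi to EpiSC, and Hspb6 is high on the EpiSC arrays (8.91, 9.49 and 8.91).

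Hspbap1, named for its binding to HSPB1, read 10.44, 10.25 and 10.24 in EsrrbHi, 10.07, 10.10 and 10.03 in EsrrbMed, 9.56, 9.33 and 9.44 in EsrrbNeg and 9.34, 9.19 and 9.44 in EpiSC. On this brightest probe EsrrbNeg and EpiSC overlapped, with a difference of −0.08 ± 0.11 (95% interval −0.32 to 0.16), and both lay below EsrrbHi and EsrrbMed. The fall from EsrrbHi was 1.83-fold in EsrrbNeg (adjusted p = 1.13e-05) and 1.93-fold in EpiSC (adjusted p = 1.05e-05). From EsrrbMed it was 1.55-fold in EsrrbNeg (adjusted p = 0.000313) and 1.63-fold in EpiSC (adjusted p = 0.000157). Without EsrrbNeg replicate 2 the change from EsrrbMed to EsrrbNeg was −0.56, under the fold threshold. A dimmer second probe of Hspbap1 read 4.95, 4.86 and 4.66 in EsrrbNeg and 4.32, 4.29 and 4.61 in EpiSC, without overlap. It was detected on 3 of 3 EsrrbNeg arrays and 0 of 3 EpiSC arrays, and both groups again lay below EsrrbHi and EsrrbMed. Hspbp1, which releases nucleotide from Hsp70, stayed between −0.23 and 0.18 and was not called.

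Of the Hsp70 genes, Hspa2 alone was called. Known for its role in spermatocytes, it read 6.35, 6.21 and 6.46 in EsrrbHi, 6.53, 6.32 and 6.53 in EsrrbMed, 6.90, 6.80 and 7.13 in EsrrbNeg and 7.48, 7.69 and 7.89 in EpiSC. EsrrbHi and EsrrbMed overlapped, EsrrbNeg was above both, and EpiSC was above EsrrbNeg. The rise to EpiSC was 2.33-fold from EsrrbHi (adjusted p = 2.93e-06), 2.15-fold from EsrrbMed (adjusted p = 8.86e-06) and 1.53-fold from EsrrbNeg (adjusted p = 0.00173). From EsrrbHi to EsrrbNeg it was 1.52-fold (adjusted p = 0.000594), just past the threshold. That change was 0.57 without EsrrbHi replicate 2, 0.56 without EsrrbNeg replicate 3 and 0.58 with arrays scaled to a common median, none of them called, and median scaling left 0 chaperones higher and 7 lower in EsrrbNeg. The step from EsrrbNeg to EpiSC was 0.58 without EsrrbNeg replicate 2 and 0.51 without EpiSC replicate 3, neither called. A dimmer second probe of Hspa2 was not called in any comparison and gave 0.43 ± 0.13 from EsrrbHi to EpiSC.

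Hspa8, the constitutive cytosolic Hsp70, had 3 kept probes, the brightest of which read 12.95, 12.99 and 13.04 in EsrrbHi, 12.76, 12.99 and 13.07 in EsrrbMed, 12.86, 12.95 and 12.95 in EsrrbNeg and 12.82, 12.59 and 12.84 in EpiSC. Its changes ran from −0.32 to −0.02 over the 6 comparisons, and none was called. Median scaling moved the change from EsrrbHi to EpiSC to −0.71, which was called. The next brightest probe read 12.46, 12.47 and 12.11 in EsrrbHi, 12.28, 12.07 and 12.26 in EsrrbMed, 12.38, 12.23 and 12.17 in EsrrbNeg and 11.42, 11.33 and 11.37 in EpiSC. Every EpiSC array of that probe was below every ESC array, and it was called lower against EsrrbHi (−0.88 ± 0.12), EsrrbMed (−0.74 ± 0.12) and EsrrbNeg (−0.80 ± 0.12). The dimmest gave −0.43 ± 0.15, −0.32 ± 0.15 and −0.27 ± 0.15 in the same order and was not called.

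Hspa9 (mortalin), the mitochondrial Hsp70, ran from 0.04 to 0.21 over the 6 comparisons, with 95% intervals between −0.16 and 0.45, on its brightest probe. Its other kept probe gave −0.12 ± 0.14, −0.17 ± 0.14 and −0.21 ± 0.14 in EpiSC against EsrrbHi, EsrrbMed and EsrrbNeg, opposite in sign to the brightest, and neither probe was called. Hspa5 (BiP), the Hsp70 of the ER, had a dim probe that was detected on 2, 1 and 1 of 3 arrays in EsrrbHi, EsrrbMed and EsrrbNeg and on 3 of 3 in EpiSC. It read 4.70, 4.54 and 5.24 in EsrrbHi, 4.40, 4.29 and 4.97 in EsrrbMed, 4.45, 4.33 and 4.98 in EsrrbNeg and 4.75, 4.96 and 4.95 in EpiSC. The chip that holds EpiSC stood 0.61 above the other. With chip in the fit Hspa5 was −0.35 ± 0.10 in EpiSC against EsrrbHi, under the fold threshold. Without that correction the group means were 4.83 in EsrrbHi and 4.89 in EpiSC, so the lower value rests on the chip term. Hspa5 was measured only through EpiSC, so the rule favours a higher value there and no p-value is given. The Hsp110 genes were not called. Hspa4 came farthest between EpiSC and EsrrbMed (−0.47 ± 0.13, adjusted p = 0.00777), and Hsph1 was 0.34 ± 0.12 in EsrrbNeg against EsrrbHi (adjusted p = 0.0374) and −0.41 ± 0.14 in EpiSC against EsrrbNeg (adjusted p = 0.0277).

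Neither Hsp90 gene was called. Hsp90aa1, the stress-responsive cytosolic form, read 11.02, 10.55 and 11.34 in EsrrbHi, 10.53, 10.13 and 11.17 in EsrrbMed, 10.45, 9.98 and 10.81 in EsrrbNeg and 10.81, 10.92 and 10.86 in EpiSC. The ESC groups overlapped, yet within each replicate number the order was EsrrbHi, EsrrbMed, EsrrbNeg, and chip 2 stood 0.66 above chip 1. The change was −0.56 ± 0.15 in EsrrbNeg (adjusted p = 0.00946) and −0.54 ± 0.17 in EpiSC (adjusted p = 0.0166) against EsrrbHi, both just under 1.5-fold. Without EsrrbNeg replicate 1, EsrrbHi replicate 2 or EsrrbHi replicate 3 the change was called, at −0.70, −0.67 and −0.61 in EsrrbNeg and −0.59, −0.62 and −0.64 in EpiSC. Median scaling also brought both past the threshold (−0.71 and −0.74). A dimmer second probe gave −0.42 ± 0.10 and −0.45 ± 0.11 and was not called. Hsp90b1 (Grp94), the ER counterpart, was 0.37 ± 0.10 in EsrrbNeg against EsrrbMed (adjusted p = 0.0126).

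No change of the mitochondrial chaperonin was called on its brightest probes. Hspd1 (Hsp60) read 11.64, 11.42 and 11.71 in EsrrbHi, 11.69, 11.49 and 11.91 in EsrrbMed, 11.73, 11.67 and 11.79 in EsrrbNeg and 11.76, 11.70 and 11.67 in EpiSC with its brightest probe, whose changes ran from −0.15 to 0.14. Its second kept probe read 9.76, 9.61 and 9.51 in EsrrbHi, 9.47, 9.72 and 9.73 in EsrrbMed, 9.67, 9.94 and 9.51 in EsrrbNeg and 8.96, 8.73 and 8.58 in EpiSC. That probe was called lower in EpiSC against EsrrbHi (−0.80 ± 0.15), EsrrbMed (−0.81 ± 0.15) and EsrrbNeg (−0.88 ± 0.15). The probes of Hspd1 thus disagree on EpiSC, and the ESC groups overlapped in both. Hspe1 (Hsp10), the lid of the Hsp60 chamber, came farthest between EpiSC and EsrrbNeg (−0.31 ± 0.11, adjusted p = 0.0375) and was not called.

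**Figure D3:**
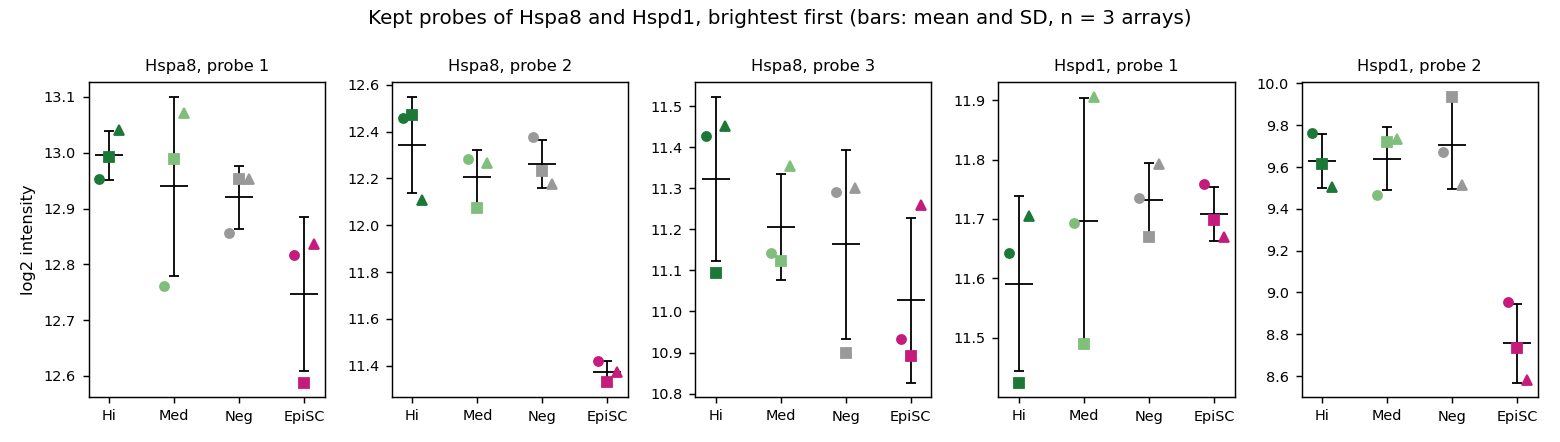
Normalised log2 intensity on each array for the kept probes of Hspa8 and Hspd1, brightest first, with each group's mean and SD (n = 3) and a separate vertical axis per panel. The second probe of each gene lies lower on the EpiSC arrays (11.42, 11.33 and 11.37 for Hspa8, 8.96, 8.73 and 8.58 for Hspd1) than on any ESC array.

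Among CCT subunits, the bright Cct3, Cct4, Cct6a and Cct8 differed by no more than 0.18 on the log2 scale in any comparison, with 95% intervals between −0.41 and 0.42, on their brightest probes. A second kept probe of Cct3 read 10.47, 10.51 and 10.15 in EsrrbHi, 10.39, 10.40 and 10.26 in EsrrbMed, 10.38, 10.48 and 10.10 in EsrrbNeg and 9.93, 9.91 and 9.68 in EpiSC, lower on every EpiSC array than on any ESC array. Its changes in EpiSC were −0.36 ± 0.11 against EsrrbHi, −0.33 ± 0.11 against EsrrbMed and −0.30 ± 0.11 against EsrrbNeg (adjusted p = 0.0108, 0.0179 and 0.0345), under the fold threshold. Cct2, Cct5 and Cct7 had dim probes, and for Cct5 and Cct7 chip 2 stood 0.93 and 0.90 above chip 1. Cct7 was −0.48 ± 0.14 in EsrrbNeg against EsrrbHi (adjusted p = 0.0162), under the fold threshold. Cct6b, the form of subunit 6 known from testis, read 4.87, 4.99 and 5.14 in EsrrbHi, 4.87, 5.0 and 5.18 in EsrrbMed, 4.34, 4.40 and 4.61 in EsrrbNeg and 4.46, 4.51 and 4.58 in EpiSC. It was detected on all arrays of EsrrbHi and EsrrbMed and was not well above background on any array of EsrrbNeg or EpiSC, so only bounds are given, from the lowest signal of detected probes. Cct6b was measured only through its detection in EsrrbHi and EsrrbMed. The rule thus favours lower values in the other groups, and no p-value is given. Cct6b was at least 1.29-fold lower in EsrrbNeg and at least 1.25-fold lower in EpiSC than in EsrrbHi. Against EsrrbMed it was at least 1.30-fold lower in EsrrbNeg and at least 1.27-fold lower in EpiSC. These bounds for Cct6b are under the fold threshold. Its calls in EpiSC were lost without a chip term, while the measured changes of −0.55 and −0.56 in EsrrbNeg were under the fold threshold.

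Among the J proteins, Dnajb6 changed most. It keeps polyglutamine proteins from aggregating and is needed for the mouse placenta, and it read 9.87, 9.74 and 10.06 in EsrrbHi, 9.78, 9.84 and 9.98 in EsrrbMed, 8.89, 9.04 and 9.08 in EsrrbNeg and 8.52, 8.81 and 8.66 in EpiSC. EsrrbHi and EsrrbMed overlapped, and EsrrbNeg and EpiSC were lower with no overlap. Dnajb6 was 1.85-fold lower in EsrrbNeg than in EsrrbHi (adjusted p = 7.21e-06) and 1.82-fold lower than in EsrrbMed (adjusted p = 1.75e-05). In EpiSC it was 2.53-fold lower than in EsrrbHi (adjusted p = 3.51e-07) and 2.49-fold lower than in EsrrbMed (adjusted p = 5.78e-07). From EsrrbNeg to EpiSC it was −0.46 ± 0.11 (adjusted p = 0.00446), under the fold threshold. A second probe gave −0.80 ± 0.11 in EsrrbNeg and −1.19 ± 0.13 in EpiSC against EsrrbHi. For the same differences the third and dimmest gave −0.19 ± 0.19 (adjusted p = 0.449) and −0.56 ± 0.22 (adjusted p = 0.0414), and it was detected on 2 of 3 EsrrbNeg arrays and 1 of 3 EpiSC arrays. Dnajb1, the main heat-inducible J protein, stayed between −0.14 and 0.27 and was not called.

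Dnajb13, a J protein of the sperm tail, read 5.47, 5.49 and 5.17 in EsrrbHi, 5.08, 5.24 and 5.16 in EsrrbMed, 4.74, 4.80 and 4.52 in EsrrbNeg and 4.85, 5.14 and 4.86 in EpiSC. EsrrbNeg was lowest, with EpiSC above it, and 2 of 3 EsrrbNeg arrays detected the gene. It was 1.61-fold lower in EsrrbNeg than in EsrrbHi (adjusted p = 0.000125), a call lost with no background correction. Dnajc7, which links Hsp70 and Hsp90, was 1.57-fold lower in EpiSC than in EsrrbHi (adjusted p = 0.00111) and 1.52-fold lower than in EsrrbMed (adjusted p = 0.00229). Without EsrrbHi replicate 1, EsrrbNeg replicate 1, EsrrbMed replicate 2 or EpiSC replicate 1 the change against EsrrbMed was −0.58, −0.56, −0.53 or −0.56 and not called. Neither change of Dnajc7 was called without a chip term.

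Dnajc27, which joins a small GTPase fold to a J domain, read 6.17, 6.23 and 6.10 in EsrrbHi, 6.21, 6.17 and 5.87 in EsrrbMed, 5.88, 6.20 and 5.71 in EsrrbNeg and 5.29, 5.12 and 5.25 in EpiSC. The ESC groups overlapped and EpiSC lay below all of them, 1.72-fold lower than EsrrbHi (adjusted p = 7.25e-05) and 1.62-fold lower than EsrrbMed (adjusted p = 0.000214). Against EsrrbNeg it was −0.55 ± 0.12 (adjusted p = 0.0021), under the fold threshold. Its calls against EsrrbHi and EsrrbMed were lost with no background correction. Dnajc5, the cysteine string protein of secretory vesicles, read 9.22, 9.31 and 9.04 in EsrrbHi, 9.23, 9.26 and 9.09 in EsrrbMed, 9.44, 9.56 and 9.51 in EsrrbNeg and 9.63, 9.95 and 9.82 in EpiSC. EpiSC lay above all ESC groups, 1.62-fold higher than EsrrbHi (adjusted p = 0.000165) and 1.61-fold higher than EsrrbMed (adjusted p = 0.000203). Its second kept probe gave 0.24 ± 0.10 and 0.21 ± 0.10 and was not called.

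Among the 10 mitochondrial chaperones, 4 J proteins were called in at least 1 comparison, and their orders of the groups differed. In EsrrbNeg against EsrrbHi 1 was called, beside 18.1% of all features. In EpiSC, 3, 1 and 1 were called against EsrrbNeg, EsrrbHi and EsrrbMed, beside 21%, 33.4% and 30.5% of all features. Dnajc15, an inner membrane J protein of the import machinery, read 8.83, 8.86 and 8.80 in EsrrbHi, 8.83, 8.72 and 8.78 in EsrrbMed, 8.83, 8.95 and 9.27 in EsrrbNeg and 9.61, 9.60 and 9.58 in EpiSC. Every EpiSC array was above the ESC arrays. It was 1.61-fold higher in EpiSC than in EsrrbHi (adjusted p = 0.000192) and 1.68-fold higher than in EsrrbMed (adjusted p = 0.000112), and without EsrrbHi replicate 3 the former was 0.56 and not called. Dnajc30, a mitochondrial J protein of the inner membrane, read 8.08, 8.22 and 8.08 in EsrrbHi, 8.25, 8.14 and 7.99 in EsrrbMed, 7.92, 7.94 and 7.94 in EsrrbNeg and 8.54, 8.50 and 8.71 in EpiSC. EpiSC was highest, and 1.63-fold above EsrrbNeg (adjusted p = 0.000172), a call lost with no background correction.

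Dnajc4, assigned to mitochondria, read 6.28, 6.23 and 6.17 in EsrrbHi, 5.98, 6.25 and 5.79 in EsrrbMed, 5.43, 5.50 and 5.81 in EsrrbNeg and 6.13, 6.31 and 6.39 in EpiSC. It was lowest in EsrrbNeg, whose highest array overlapped EsrrbMed, and EpiSC overlapped EsrrbHi. EsrrbNeg stood 1.57-fold below EsrrbHi (adjusted p = 0.00141) and 1.64-fold below EpiSC (adjusted p = 0.00223). Without EsrrbNeg replicate 1 the change from EsrrbHi was −0.56 and not called. Both calls of Dnajc4 were lost with no background correction. Dnajc11, of the complex that shapes mitochondrial cristae, read 7.13, 7.41 and 7.08 in EsrrbHi, 6.95, 7.04 and 7.21 in EsrrbMed, 7.30, 7.56 and 7.09 in EsrrbNeg and 6.67, 6.54 and 6.64 in EpiSC. EpiSC lay below the ESC groups, which overlapped, and was 1.55-fold lower than EsrrbNeg (adjusted p = 0.00324). That change was −0.55 without EsrrbNeg replicate 2 and −0.52 without EsrrbMed replicate 3, neither called. Dnaja3, the class A J protein of mitochondria, was −0.49 ± 0.12 in EpiSC against EsrrbMed (adjusted p = 0.00347), under the fold threshold.

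None of the 8 ER chaperones was called in any comparison in limma, where 1.18% to 33.4% of all features were called. The probes of Hspa5 and Dnajc18 were dim, so their lack of a call says little. Between EpiSC and EsrrbHi, 3 of the 8 had an adjusted p of 0.05 or less with higher values and 2 with lower values, and so had 30.1% and 27.2% of all features. Hspa5 and Dnajc18 were not left out of these counts. Both were measured only through EpiSC, where the rule favours higher values, so the counts are a description only. Dnajc10, the J protein that reduces disulphide bonds in the ER, came nearest. It read 8.82, 8.98 and 8.89 in EsrrbHi, 8.94, 8.96 and 8.97 in EsrrbMed, 9.27, 9.21 and 9.32 in EsrrbNeg and 9.49, 9.47 and 9.51 in EpiSC, and its change from EsrrbHi to EpiSC was 0.57 ± 0.09 (adjusted p = 0.000136). EsrrbNeg and EpiSC lay above the other groups on every array. Dnajb12, an ER membrane J protein of protein degradation, was 0.53 ± 0.11 in the same comparison (adjusted p = 0.000999).

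Genes that work with the chaperones were taken from lists of partners. Of 25 measured Hsp90 and Hsp70 partners, 1 rose and 0 fell in limma in EsrrbNeg against EsrrbHi, with an adjusted p of 0.05 or less for 4 higher and 3 lower. Of all features, 9.06% rose and 9.06% fell, and 22.1% and 18.9% had such an adjusted p. In EpiSC, 1 rose and 2 fell against EsrrbNeg, and 2 rose and 3 fell against EsrrbHi, where 12.1% and 8.96%, and 18.5% and 14.9%, of all features did. Bag3, the cochaperone that binds HSPB8 and Hsp70, read 7.95, 7.54 and 7.53 in EsrrbHi, 8.02, 7.93 and 7.80 in EsrrbMed, 8.56, 8.46 and 8.66 in EsrrbNeg and 9.09, 9.40 and 9.56 in EpiSC. It rose by 0.88 ± 0.14 from EsrrbHi to EsrrbNeg (adjusted p = 0.000165), where Hspb8 fell by 1.41, and by 0.84 ± 0.16 from EsrrbNeg to EpiSC (adjusted p = 0.000861). Ahsa1, which starts the ATPase of Hsp90, fell by 0.63 ± 0.09 from EsrrbHi to EpiSC (adjusted p = 6.99e-05). Cdc37l1 (−0.86) and the Hsp90 cochaperone Fkbp5 (−0.68) fell in the same comparison. Bag2, counted as higher, was detected on none of the EsrrbHi arrays and on all EpiSC arrays. There it was at least 1.25-fold higher, a bound under the fold threshold. Bag2 was measured only through EpiSC, so the rule favours a higher value there and no p-value is given. Ppp5c, the phosphatase that docks on Hsp90, fell by 0.72 ± 0.12 from EsrrbNeg to EpiSC (adjusted p = 0.000475).

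Of 14 measured ER folding genes, 0 rose and 1 fell in limma in EsrrbNeg against EsrrbHi, with an adjusted p of 0.05 or less for 4 higher and 2 lower. Over all features these shares were 9.06%, 9.06%, 22.1% and 18.9%. In EpiSC, 3 rose and 3 fell against EsrrbNeg, and 2 rose and 4 fell against EsrrbHi, beside the same 12.1% and 8.96%, and 18.5% and 14.9%, of all features. Xbp1, a transcription factor of the unfolded protein response, read 10.20, 9.84 and 9.91 in EsrrbHi, 9.92, 9.51 and 9.77 in EsrrbMed, 8.76, 8.44 and 8.74 in EsrrbNeg and 9.14, 9.17 and 9.47 in EpiSC. It fell by 1.34 ± 0.14 from EsrrbHi to EsrrbNeg (adjusted p = 6.78e-06) and rose by 0.60 ± 0.16 from EsrrbNeg to EpiSC (adjusted p = 0.00987). Herpud1, of ER-associated degradation, read 7.41, 7.19 and 7.22 in EsrrbHi, 7.38, 7.33 and 7.03 in EsrrbMed, 7.91, 7.53 and 8.13 in EsrrbNeg and 9.07, 8.94 and 9.13 in EpiSC, and rose by 1.78 ± 0.17 from EsrrbHi to EpiSC (adjusted p = 1.21e-06). Sil1, which exchanges the nucleotide of BiP, was also higher in EpiSC than in EsrrbHi (1.01 ± 0.18), and the lectin chaperone Calr (−0.92 ± 0.15), the disulphide isomerase Pdia4 (−0.76 ± 0.11) and Sdf2l1 (−0.87 ± 0.15) were lower. Of 9 mitochondrial genes, 6 CCT and prefoldin genes and 2 heat shock factors or their binding proteins measured, none was called in limma in any comparison, and 3, 0 and 0 of them had an adjusted p of 0.05 or less in EpiSC against EsrrbHi, beside the 30.1% higher and 27.2% lower of all features.

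**Figure D4:**
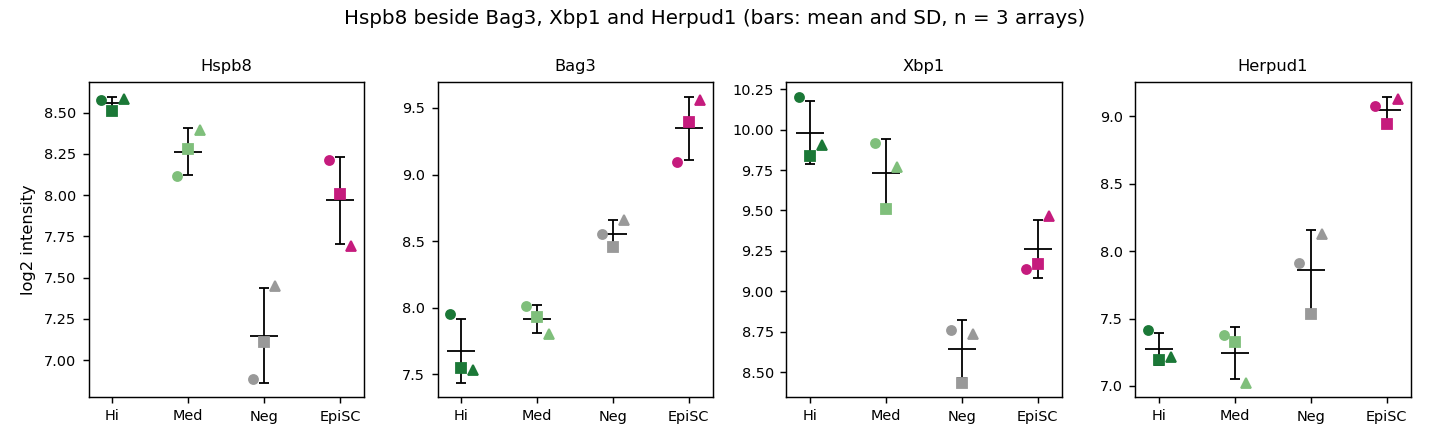
Normalised log2 intensity on each array for Hspb8, its partner Bag3 and the ER genes Xbp1 and Herpud1, with each group's mean and SD (n = 3) and a separate vertical axis per panel. From EsrrbHi to EsrrbNeg, Hspb8 fell by 1.41 and Bag3 rose by 0.88.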

How the data were processed

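The 12 arrays were Illumina MouseWG-6 v2 bead arrays, 3 for each of EsrrbHi, EsrrbMed, EsrrbNeg and EpiSC. The deposited intensity values are bead summaries on a linear scale, made by the authors with beadarray, for which no version is stated in the labels or methods, and each comes with a deposited detection p-value. The authors also deposited a log2 table of 38563 probes, quantile normalised and corrected for batch with ComBat, used here only as an alternative. In it the EpiSC arrays kept the rank order of their intensities (Spearman correlation 1), while ESC arrays gave 0.978 to 0.996. That table was fitted with no chip term, so it does not check the chip correction of the EpiSC comparisons. Probes were named from the platform annotation, where 32093 of 45281 had 1 gene name, 16 several and 13172 none.

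Intensities were background-corrected from the detection p-values (normexp, offset 16), quantile normalised and put on the log2 scale with neqc of limma 3.58.1 in R 4.3.3. Features were 14834 probes detected (p of 0.01 or less) on all arrays of some group, reduced to the brightest probe per named gene and joined by 2602 unnamed probes, 11089 in all. A model with group and chip was fitted to all arrays (lmFit and eBayes, two-sided), and Benjamini-Hochberg adjusted p-values were taken over all features. Printed array values carry no chip correction, and changes do. The code was tested on simulated data. The number of arrays limits the precision.

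The members, gene lists and tests were chosen with earlier results of these data known. Every called member is named, with array values for the 14 that had the widest range of group means. Within a family or compartment with no call, the member of largest change is named, as are Hspa8, Hspa5, Hspa9, Hsp90aa1, Hsp90b1, Hspd1, Hspe1, Hsph1, Dnajb1 and Hspb1 whatever their values. Other genes named, and other array values, were chosen after their values were seen. Among ESC arrays the replicate numbers pair the samples, since deviations from the group means of same-numbered arrays correlated at 0.238 to 0.555 in every pair. Those of EpiSC did not (-0.052 to 0.058).

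Alternatives changed the background correction, normalisation, source table, detection filter, probe choice, chip term and fold threshold, or left out an array.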

Additional observations from a re-analysis of the deposited data

How the results depend on the processing

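No call reversed direction under any alternative run, and 15 of the 39 called gene-by-comparison results were called under all of them, among them Dnajb6, Hspb8 and Hspbap1 in EsrrbNeg against EsrrbHi and Dnajb6, Hspa2, Hspb1, Hspb6 and Hspbap1 in EpiSC against both EsrrbHi and EsrrbMed. The number of chaperones called in EsrrbNeg against EsrrbHi went from 7 to 4 with no background correction, to 4 with an offset of 50, to 4 in the authors' log2 table and to 3 on chip 2 alone, where each ESC group has 1 array that is assumed to vary like EpiSC. In EpiSC against EsrrbNeg it went from 7 to 2, 3, 3 and 2 under the same settings. Over all features calls went from 2010 to 745, 1117, 725 and 1302 in the first comparison and from 2332 to 836, 1262, 880 and 1373 in the second. The authors' table gave 6 in EpiSC against EsrrbHi and 6 against EsrrbMed, from 11 and 10 (all features 1670 and 1466, from 3707 and 3383), and chip 2 alone gave 0 in EsrrbNeg against EsrrbMed, from 4 (all features 720, from 1319). The causes were not tested. With no minimum fold the counts were 14 (EsrrbNeg against EsrrbMed), 20 (EsrrbNeg against EsrrbHi), 19 (EpiSC against EsrrbNeg), 26 (EpiSC against EsrrbHi) and 20 (EpiSC against EsrrbMed), since fewer conditions apply, and over all 11089 features they were 3238, 4544, 4905, 6352 and 6147. Leaving out 1 array gave 0 to 0, 3 to 5, 7 to 8, 5 to 10, 11 to 13 and 9 to 11 calls between EsrrbMed and EsrrbHi, for EsrrbNeg against EsrrbMed and then EsrrbHi, and for EpiSC against EsrrbNeg, EsrrbHi and EsrrbMed, and 31 of the 39 results were called in every such fit. With replicate number as a block in place of chip the counts were 0, 4, 7, 9, 12 and 8 in that order, and Cct6b and Dnajc7 lost their calls in EpiSC, whose numbers do not pair with the ESC arrays. A block within the ESC arrays alone, chosen after seeing the data, kept 11 of 11 calls and changed none. Signal over background limits Cct2, Cct5, Cct6b, Cct7 and Hspa5, whose probes were dim. The same holds for Dnajb13 and for Dnajc27 in EpiSC. Calls of Dnajb13 and Dnajc27 were lost with no background correction, with an offset of 50 and in the authors' table. So were both calls of Dnajc4, both calls of Cct6b, that of Dnajc11 and that of Dnajc7 in EpiSC against EsrrbMed. Those of Hspa2 in EsrrbNeg against EsrrbHi and in EpiSC against EsrrbNeg were lost under the same settings.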
